A study of Mus musculus with 6 samples.

Results

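The genes described here are a fixed set of 50 genes of DNA replication and S phase, grouped by role into origin licensing, origin firing, replication forks, nucleotide supply, chromatin copying, E2F and cyclin E control, and S phase repair. All 50 were found by symbol among the 27263 genes listed for each library. The cells were primary bone marrow stromal cells of C57BL/6 mice, taken from tibia and femur, sorted for Sca-1+ CD29+ cells that lacked CD45 and CD11b, and grown in medium with 10% serum. There were 3 libraries of cells given rGCA at 50 nM and 3 of cells given PBS, each over 3 days, numbered 1 to 3 in the labels. From knowledge of the study, GCA stands for grancalcin, a protein that binds calcium and is made by myeloid cells; the r marks a recombinant protein. No label says whether the libraries came from separate mice or cultures, so p-values measure the spread between these libraries, which may be technical.

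Replication is prepared in G1, when the origin recognition complex, Cdc6 and Cdt1 load the MCM2-7 helicase onto origins, a step called licensing. In S phase Cdc45 and the GINS complex join MCM2-7 and switch the helicase on, and polymerases held by the PCNA clamp copy the strands from nucleotides made in the same phase. Many of these genes are transcribed in a burst at the G1 to S boundary under E2F transcription factors, so in a mixed culture such transcripts generally track how many cells are replicating. In bulk RNA, a change in the number of cells in S phase and a change in RNA per such cell cannot be told apart.

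Values are FPKM, meaning fragments scaled both for a library's total and for the length of a gene's exons. Levels of different genes can be compared only roughly, as the exons of all transcripts together can exceed the transcript expressed. For Mcm7 they span 4426 bases, against 2962 in its longest transcript. Library totals were inferred as the scaling that made most values whole fragments, and ran from 17543509 to 18645932. Fragments recovered over all matched genes summed to more than the inferred total in every library (18929244 to 19943239). The reason was not tested, so fragment numbers are approximate. Over the 50 genes a value rested on as few as 5 fragments (Fen1) and as many as 4042 (Rrm1). Genes were tested with limma on log2(FPKM + 1) if their mean over the 6 libraries was at least 1 FPKM, and a change was called at a Benjamini-Hochberg adjusted p under 0.05 over all 11984 genes tested. Fold changes in log2 units and their standard errors (SE) are on that scale, which understates changes of low genes. Where 3 values of a group are given, they are in the order of replicates 1 to 3.

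Transcripts of stromal cells and of macrophages were both present in every library, while the gate took cells without CD45 or CD11b. The sorted markers Ly6a (Sca-1) and Itgb1 (CD29) stood at 291 to 357 and 295 to 336 FPKM in GCA libraries, against 255 to 331 and 336 to 368 FPKM in PBS libraries. Ptprc (CD45) stood at 12.9 to 14.5 FPKM in GCA libraries and 12.0 to 13.2 FPKM in PBS libraries, and Itgam (CD11b) at 24.9 to 40.9 FPKM in GCA libraries and 36.7 to 43.1 FPKM in PBS libraries. Of 19 tested macrophage markers 9 rose, 1 fell (Lyz2) and 9 did not pass. Over all tested genes 11.5% were called higher and 6.43% lower. The 20 macrophage markers summed to 18758 to 19869 FPKM in GCA libraries and 20998 to 23328 FPKM in PBS libraries. Lyz2 alone set that order: without it, a split made after its values were seen, the other 19 summed to 10178 to 10709 FPKM in GCA libraries and 8372 to 9265 FPKM in PBS libraries. Of 14 tested stromal markers 4 fell, where 6.43% of all tested genes were called lower, and 10 did not pass. The 15 stromal markers summed to 3461 to 3719 FPKM in GCA libraries and 3980 to 4208 FPKM in PBS libraries. No stromal or macrophage marker was at 0 in any library. The endothelial, B cell, erythroid and megakaryocyte markers each summed to under 3 FPKM in every library, and 4 neutrophil markers to 2.45 to 5.02 FPKM in GCA libraries and 3.04 to 5.31 FPKM in PBS libraries. Ms4a1 (B cell) was at 0 in all GCA libraries, and Mpo (neutrophil) was at 0 in 2 of 3 libraries of each group. The part of these shifts in the results on replication genes was not tested.

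Replication genes were higher with GCA as a group, by small amounts. This set and the other gene lists were chosen with earlier results of these data known. Their shares beside all tested genes therefore describe the lists and are no test of them. Of the 50 genes, 47 passed the filter on low values, and 30 of these rose, a share of 63.8% beside 11.5% of all tested genes called higher. The other 17 did not pass, and limma called none of the 47 lower, where 6.43% of all tested genes were called lower. At an unadjusted p under 0.05 there were 37 higher and 1 lower (E2f2), beside 19.1% and 13.7% of all tested genes. Limma-voom on fragments recovered from the FPKM values called 33 higher and 1 lower, beside 12.6% and 10.4% of the genes it tested. The fold change was above 0 for 46 of 47 genes, beside 51.6% of all tested genes. The median was 0.28 log2 units, against 0.01 over all tested genes. Values of the 3 GCA libraries lay wholly above those of the 3 PBS libraries for 36 of the 47 genes, beside 21.6% of all tested genes. Counts of rises by role, given below, stand beside the same 11.5% of all tested genes called higher. Calls were in either direction for 17.9% of tested genes, and 64.2% of calls were higher with GCA, or 53.8% after quantile normalization, which left 27 of the 47 called higher and 1 lower, beside 10.0% and 8.57% of all tested genes.

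The count of 30 fell when 1 library was left out, in fits that fewer samples entered. Without PBS replicate 3, GCA replicate 3 or PBS replicate 1 it was 15, 15 and 17, and without GCA replicate 2 it was 20. Over all genes the same omissions gave 1225, 1521, 1461 and 2078 calls in place of 2151. There were 13 genes called in each of the 6 fits that left out 1 library: Gmnn, Mcm2, Mcm5, Mcm10, Pcna, Pold1, Rfc2, Rfc5, Lig1, Rpa1, Tk1, Uhrf1 and Dnmt1. All 30 called genes kept a fold change above 0 in every fit.

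Libraries of a group differed in a shared way over many of the 47 genes. GCA replicate 1 was the lowest of its group for 36 of the 47 genes, and PBS replicate 2 was the highest of its group for 32. PBS replicate 2 was also the highest for 36 of 59 further replication genes and 21 of 28 mitosis genes, lists described below. In those lists GCA replicate 1 was the lowest of its group for 21 and 11 genes, and GCA replicate 2 for 23 and 14. Such counts were not taken over all tested genes. The median difference from the PBS mean was 0.21, 0.32 and 0.31 log2 units in GCA replicates 1 to 3 and -0.06, 0.07 and -0.01 log2 units in PBS replicates 1 to 3. The summed level of the 47 genes was 388, 414 and 417 FPKM in GCA replicates 1 to 3, against 309, 340 and 327 FPKM in PBS replicates 1 to 3, so the groups did not overlap in either measure.

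**Figure D1:**
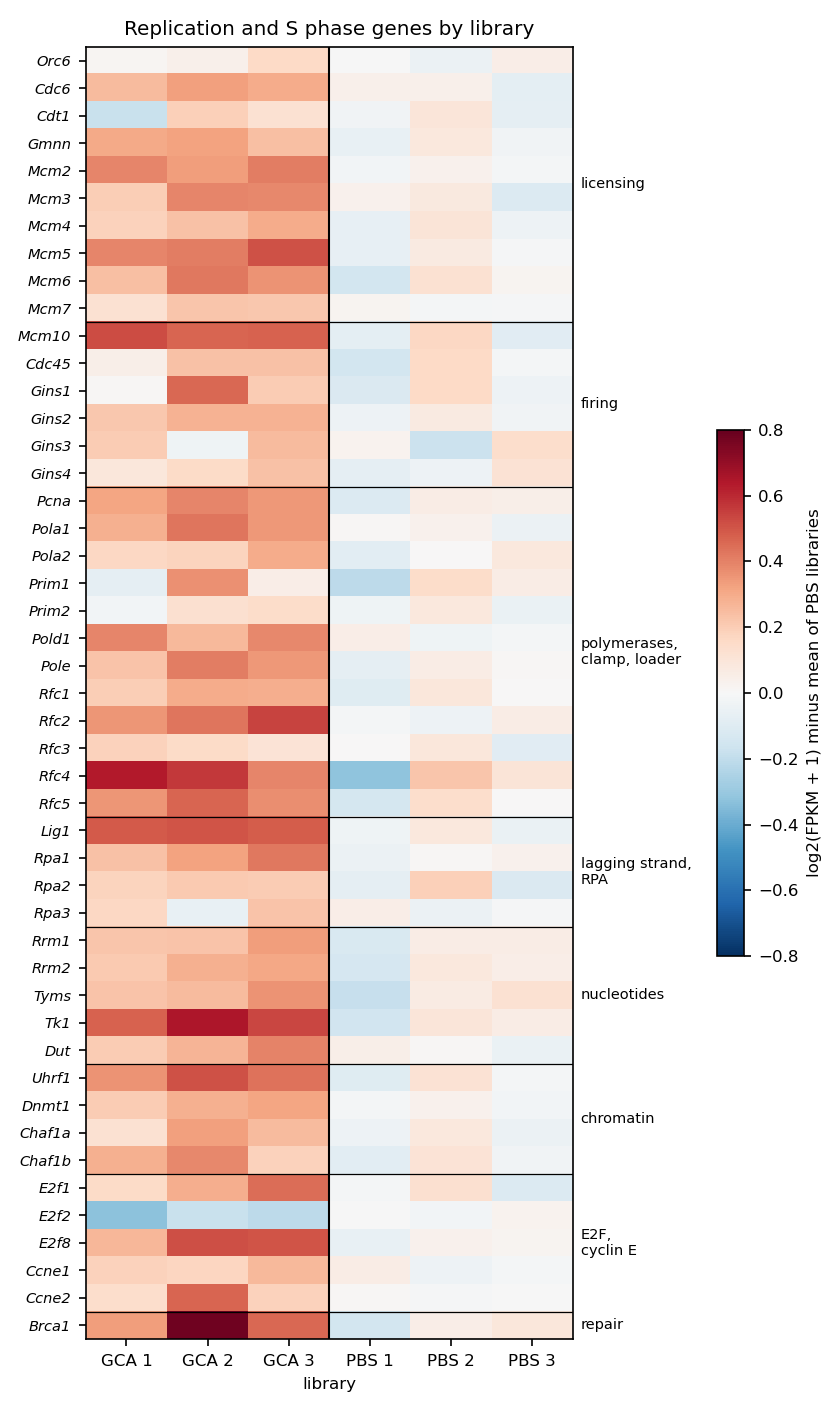
Difference of log2(FPKM + 1) from the mean of the PBS libraries for the 47 tested genes (rows, by role) in 3 GCA and 3 PBS libraries (columns). Red cells are above the PBS mean and blue cells below; the GCA columns are red in nearly all rows, E2f2 is the row with blue GCA cells throughout, and GCA 1 is paler than GCA 2 and GCA 3 in many rows.

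Letters of E2F sites stood in a larger share of these promoters than of promoters at large. In RefSeq promoters on GRCm38.p6, from 250 bases before to 50 after the start, 41 of the 50 genes had an entry. A search on both strands for TTTCCCGC, TTTCGCGC, TTTGCCGC and TTTGGCGC, 4 spellings of the E2F consensus, found at least 1 match in 16 of 41 genes (39.0%), against 2.6% of the 27025 genes in the table. The share was 40.0% (10 of 25) among genes that rose and 37.5% (6 of 16) among those that did not. A match is a description of these letters and not a shown binding site. The upstream 200 bases are shown for 6 of the genes that hold such a match there, in capitals where matches that overlap run together. Promoters of Brca2, Gins3, Mcm7 and Uhrf1 also hold a match in those bases and are not shown. Of the 6 shown, Mcm5, Mcm6, Cdc6 and Pola1 rose, Rfc3 did not pass and Orc1 was below the filter.

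Mcm5, chr8:75109309-75109508, plus strand: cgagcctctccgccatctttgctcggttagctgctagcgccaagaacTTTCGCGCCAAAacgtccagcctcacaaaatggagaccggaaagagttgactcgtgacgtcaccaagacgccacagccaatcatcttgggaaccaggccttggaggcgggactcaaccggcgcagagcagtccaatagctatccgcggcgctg
Mcm6, chr1:128359706-128359905, minus strand: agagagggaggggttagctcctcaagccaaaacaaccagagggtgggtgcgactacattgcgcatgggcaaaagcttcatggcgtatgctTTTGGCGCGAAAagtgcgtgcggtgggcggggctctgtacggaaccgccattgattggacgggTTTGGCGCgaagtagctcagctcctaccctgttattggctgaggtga
Cdc6, chr11:98907951-98908150, plus strand: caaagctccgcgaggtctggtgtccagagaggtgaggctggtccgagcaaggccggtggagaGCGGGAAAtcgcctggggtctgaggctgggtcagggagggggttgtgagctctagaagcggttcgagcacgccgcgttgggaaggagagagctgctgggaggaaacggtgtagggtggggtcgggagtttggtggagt
Pola1, chrX:93632156-93632355, minus strand: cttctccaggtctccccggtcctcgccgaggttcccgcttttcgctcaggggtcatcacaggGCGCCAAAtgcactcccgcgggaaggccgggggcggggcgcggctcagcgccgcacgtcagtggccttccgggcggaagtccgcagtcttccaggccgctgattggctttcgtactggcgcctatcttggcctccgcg
Rfc3, chr5:151651209-151651408, minus strand: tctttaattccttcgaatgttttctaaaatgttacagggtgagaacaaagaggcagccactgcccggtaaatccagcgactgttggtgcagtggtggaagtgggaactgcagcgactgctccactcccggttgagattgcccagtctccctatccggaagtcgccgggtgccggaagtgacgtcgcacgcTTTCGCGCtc
Orc1, chr4:108579254-108579453, plus strand: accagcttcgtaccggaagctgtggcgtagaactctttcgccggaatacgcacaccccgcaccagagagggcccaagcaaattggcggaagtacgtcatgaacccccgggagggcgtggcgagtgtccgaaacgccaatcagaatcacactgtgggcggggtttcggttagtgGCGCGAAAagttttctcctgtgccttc

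Origin licensing genes rose in 8 of 10 tested cases, led by the MCM2-7 helicase, all 6 subunits of which rose. Orc6 and Cdt1 did not pass, and Orc1 was below the filter. Mcm5 (ENSMUSG00000005410, chromosome 8, 75109569 to 75128439 on GRCm38) had 9.83, 10.0 and 10.8 FPKM in GCA libraries, against 6.91, 7.70 and 7.23 FPKM in PBS libraries. Every GCA library was above every PBS library, a rise of 1.40-fold by means (log2 0.44, SE 0.06, adjusted p = 0.00262). Mcm2 (ENSMUSG00000002870, chromosome 6, 88883474 to 88898780) had 6.98, 6.66 and 7.09 FPKM in GCA libraries, against 5.00, 5.23 and 5.02 FPKM in PBS libraries. Its groups were also apart, by 1.36-fold (log2 0.38, SE 0.05, adjusted p = 0.00279), and like Mcm5 it kept its call whichever library was left out. Mcm3 had 13.9, 16.1 and 16.0 FPKM in GCA libraries, against 12.3, 12.7 and 11.1 FPKM in PBS libraries, Mcm4 had 12.6, 13.1 and 13.7 FPKM in GCA libraries, against 10.5, 11.9 and 10.6 FPKM in PBS libraries, and both groups were apart for each gene. Mcm6, the most abundant subunit by mean, had 15.5, 17.7 and 16.9 FPKM in GCA libraries, against 11.6, 14.2 and 13.1 FPKM in PBS libraries. Mcm7 had 11.2, 12.1 and 12.0 FPKM in GCA libraries, against 10.4, 10.1 and 10.1 FPKM in PBS libraries, the smallest rise of the complex at 1.15-fold (log2 0.19, SE 0.05, adjusted p = 0.0369). Adjusted p-values of Mcm3, Mcm4 and Mcm6 were 0.0195, 0.0319 and 0.0208. Within a library the highest subunit of MCM2-7 stood 2.22 to 2.65 times above the lowest in GCA and 2.46 to 2.71 times in PBS, with Mcm2 the lowest in all 6 libraries. The 6 subunits summed to 70.0 to 76.5 FPKM in GCA libraries and 56.6 to 61.7 FPKM in PBS libraries.

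Calls of the other 4 subunits were lost in some of the fits that left out 1 library. Fewer samples entered those fits, and why calls were lost was not tested. Mcm3 lost its call without GCA replicate 3, PBS replicate 1 or PBS replicate 3 (adjusted p 0.0521 to 0.067). Mcm4 lost it on leaving out any library but PBS replicate 2 (0.0547 to 0.107), and Mcm7 on leaving out any but GCA replicate 1 (0.067 to 0.11). Mcm6 lost it without GCA replicates 2 or 3 or PBS replicates 1 or 3 (0.0501 to 0.062).

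**Figure D2:**
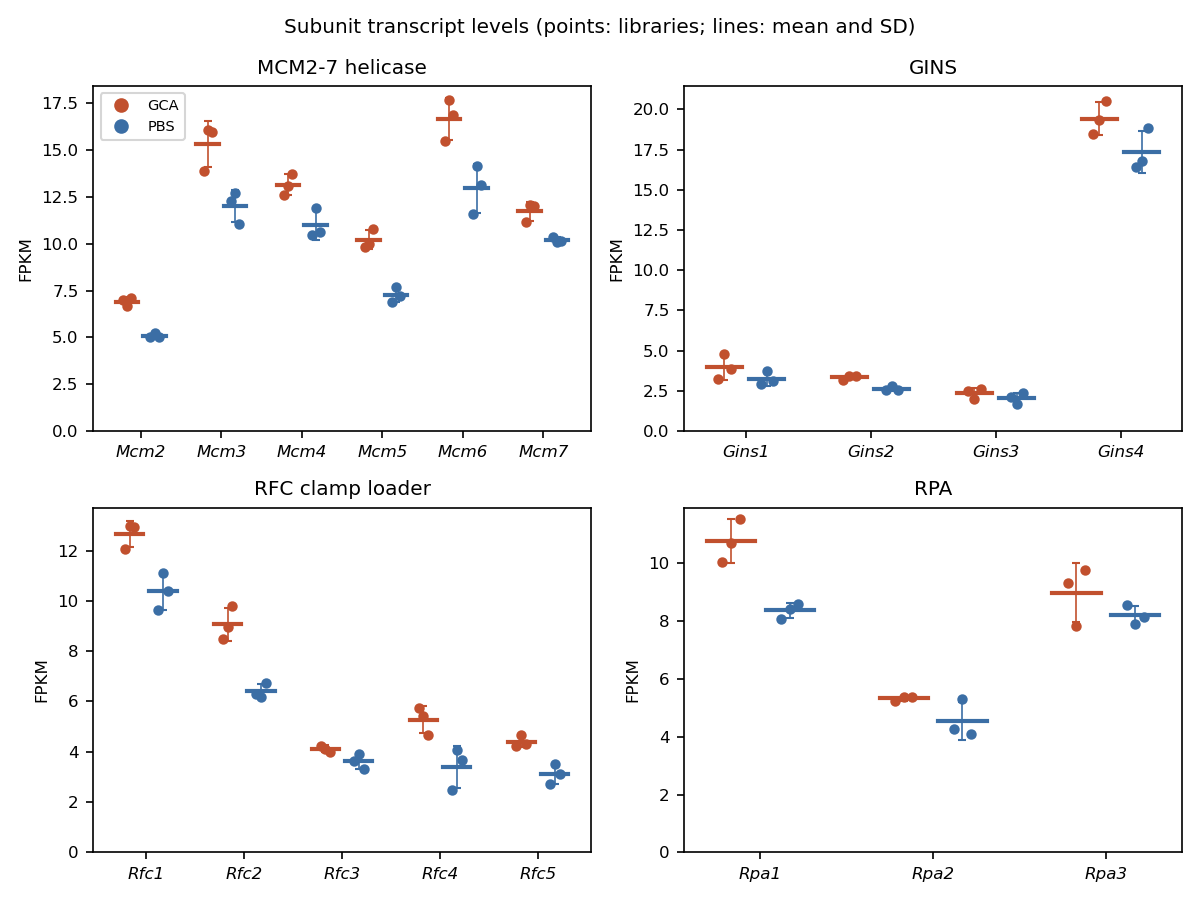
FPKM of each subunit of MCM2-7, GINS, RFC and RPA in 3 GCA libraries (left, rust red) and 3 PBS libraries (right, blue); points are libraries, lines the mean and SD. GCA points lie above PBS points for all 6 MCM genes and for all 5 RFC genes, and Gins4 stands far above the other GINS genes in both groups.

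Among the loaders, Cdc6, the ATPase that brings MCM2-7 to origins, had 1.63, 1.77 and 1.70 FPKM in GCA libraries, against 1.26, 1.26 and 1.08 FPKM in PBS libraries. It rose 1.41-fold (log2 0.29, SE 0.08, adjusted p = 0.0326), but the call was lost on leaving out any 1 library (adjusted p 0.065 to 0.12). Cdt1, its partner in loading, had 6.10, 8.17 and 7.72 FPKM in GCA libraries, against 6.88, 7.59 and 6.64 FPKM in PBS libraries. These groups overlapped (adjusted p = 0.8), with GCA replicate 1 the lowest of all 6 libraries. Gmnn encodes geminin, the protein that binds Cdt1 and blocks loading after S phase has begun, and had 12.8, 13.0 and 12.3 FPKM in GCA libraries, against 9.77, 10.9 and 10.0 FPKM in PBS libraries. Gmnn rose 1.24-fold (log2 0.29, SE 0.06, adjusted p = 0.011), and its groups were apart. The ratio of Cdt1 to Gmnn was 0.475, 0.627 and 0.630 in GCA replicates 1 to 3 and 0.704, 0.697 and 0.662 in PBS replicates 1 to 3. An exact two-sided permutation test gave p = 0.1 for that ratio, the smallest possible with 3 against 3, and 0.167 adjusted over the 5 ratios computed. Orc6, a subunit of the origin recognition complex, had 6.31, 6.44 and 7.08 FPKM in GCA libraries, against 6.20, 5.98 and 6.50 FPKM in PBS libraries and did not pass (adjusted p = 0.437). Orc1, the subunit whose level cycles, was low, with 0.821, 0.950 and 0.940 FPKM in GCA libraries, against 0.836, 0.871 and 1.00 FPKM in PBS libraries.

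Of 6 origin firing genes 2 rose, Mcm10 and Gins2, beside 11.5% of all tested genes called higher, and 4 did not pass. Mcm10, a factor that acts as the helicase starts to unwind, had 2.43, 2.30 and 2.31 FPKM in GCA libraries, against 1.26, 1.68 and 1.24 FPKM in PBS libraries. It rose 1.68-fold (log2 0.49, SE 0.09, adjusted p = 0.00871) with no overlap, and the call held whichever library was left out. Gins2 had 3.20, 3.39 and 3.39 FPKM in GCA libraries, against 2.52, 2.81 and 2.55 FPKM in PBS libraries, also without overlap (log2 0.26, SE 0.06, adjusted p = 0.0289). The call of Gins2 held only without PBS replicate 2 among the fits with 1 library left out (adjusted p 0.0607 to 0.0977 in the others). Gse1 on the opposite strand overlaps 67.3% of the exon length of Gins2, so its value is uncertain; Gse1 itself averaged 2.21 FPKM in GCA libraries and 2.19 FPKM in PBS libraries. Cdc45, the helicase cofactor, had 4.87, 5.70 and 5.69 FPKM in GCA libraries, against 4.14, 5.36 and 4.61 FPKM in PBS libraries, and the groups overlapped (adjusted p = 0.228). Gins1 had 3.25, 4.81 and 3.86 FPKM in GCA libraries, against 2.89, 3.71 and 3.11 FPKM in PBS libraries, and Gins3 had 2.48, 1.96 and 2.61 FPKM in GCA libraries, against 2.09, 1.69 and 2.34 FPKM in PBS libraries. Neither was called. Gins4 had 18.5, 19.3 and 20.5 FPKM in GCA libraries, against 16.4, 16.8 and 18.8 FPKM in PBS libraries (adjusted p = 0.135). GINS holds its 4 subunits in equal number. The highest transcript, Gins4, was 7.45 to 9.87 times the lowest, Gins3, in GCA libraries and 7.86 to 9.94 times in PBS libraries. These ratios rest on the exon lengths used.

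Polymerases, clamp and clamp loader gave 8 rises in 12 tested genes. Pcna (ENSMUSG00000027342, chromosome 2, 132249162 to 132253314), the sliding clamp, was the most abundant of the 50 genes. It had 65.3, 68.8 and 66.9 FPKM in GCA libraries, against 48.4, 54.6 and 54.0 FPKM in PBS libraries, with no overlap between groups. Pcna rose 1.28-fold (log2 0.35, SE 0.06, adjusted p = 0.00547) and kept its call whichever library was left out. Of the clamp loader, which opens PCNA onto DNA, 4 of 5 subunits rose. Rfc2 had 8.48, 8.94 and 9.79 FPKM in GCA libraries, against 6.31, 6.20 and 6.72 FPKM in PBS libraries, a rise of 1.42-fold (log2 0.44, SE 0.06, adjusted p = 0.00329). Rfc5 had 4.23, 4.66 and 4.31 FPKM in GCA libraries, against 2.71, 3.52 and 3.10 FPKM in PBS libraries, a rise of 1.42-fold (log2 0.40, SE 0.08, adjusted p = 0.0139). Both kept their calls whichever library was left out. Rfc4 had 5.73, 5.43 and 4.68 FPKM in GCA libraries, against 2.47, 4.06 and 3.66 FPKM in PBS libraries, the largest fold of the 5 at 1.56 but with the largest error (log2 0.53, SE 0.14, adjusted p = 0.0411). The call of Rfc4 was lost after quantile normalization (adjusted p = 0.0577) and median centring (0.0515), and without PBS replicate 3 or any GCA library (0.059 to 0.124). Rfc1, the large subunit, had 12.0, 13.0 and 12.9 FPKM in GCA libraries, against 9.64, 11.1 and 10.4 FPKM in PBS libraries (log2 0.26, SE 0.06, adjusted p = 0.0229), and lost its call without GCA replicates 2 or 3 or PBS replicates 1 or 3 (0.0525 to 0.0679). Rfc3 had 4.25, 4.12 and 3.98 FPKM in GCA libraries, against 3.62, 3.92 and 3.32 FPKM in PBS libraries, with the groups just apart, and was not called (adjusted p = 0.166).

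The catalytic subunits of all 3 replicative polymerases rose. Pola1, of the polymerase that lays down primers, had 2.07, 2.38 and 2.19 FPKM in GCA libraries, against 1.53, 1.57 and 1.44 FPKM in PBS libraries. It rose 1.46-fold (log2 0.35, SE 0.07, adjusted p = 0.0141), with an adjusted p of 0.0572 without PBS replicate 3. Pold1, of the lagging strand polymerase delta, had 4.90, 4.38 and 4.87 FPKM in GCA libraries, against 3.66, 3.39 and 3.44 FPKM in PBS libraries, a rise of 1.35-fold (log2 0.34, SE 0.06, adjusted p = 0.00906) that held whichever library was left out. Pole, of the leading strand polymerase epsilon, rose 1.55-fold at low levels, with 1.20 to 1.49 FPKM in GCA libraries and 0.782 to 0.957 FPKM in PBS libraries. Its adjusted p of 0.0355 became 0.0523 after quantile normalization and 0.0517 to 0.104 on leaving out any 1 library. The partner subunits of Pola1 did not pass. Pola2 averaged 8.33 ± 0.47 FPKM in GCA libraries and 7.06 ± 0.46 FPKM in PBS libraries (SD, n = 3 each, limma adjusted p = 0.0541), and passed with a mean of at least 5 FPKM (0.0389) and with limma-voom (0.017). The primase genes Prim1 and Prim2 averaged 2.61 and 3.16 FPKM in GCA libraries and 2.32 and 2.93 FPKM in PBS libraries.

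Of the genes that finish the lagging strand and coat bare DNA, Lig1 and Rpa1 rose, Rpa2 and Rpa3 did not pass, and Fen1 was below the filter. Lig1 (ENSMUSG00000056394, chromosome 7, 13277283 to 13311433) encodes the ligase that joins Okazaki fragments and had the smallest p of the 50 genes. It had 6.43, 6.49 and 6.41 FPKM in GCA libraries, against 4.16, 4.62 and 4.10 FPKM in PBS libraries, tightly grouped in GCA and apart from PBS. The rise was 1.50-fold (log2 0.49, SE 0.06, adjusted p = 0.00146) and held in every fit run. Rpa1, the large subunit of the protein that coats bare strands, had 10.0, 10.7 and 11.5 FPKM in GCA libraries, against 8.07, 8.42 and 8.59 FPKM in PBS libraries, a rise of 1.29-fold (log2 0.33, SE 0.06, adjusted p = 0.0094) that held whichever library was left out. Rpa2 had 5.24, 5.37 and 5.36 FPKM in GCA libraries, against 4.25, 5.30 and 4.09 FPKM in PBS libraries. PBS replicate 2 reached the GCA range, and without it the adjusted p was 0.0315, against 0.15 with it. Rpa3 had 9.32, 7.83 and 9.77 FPKM in GCA libraries, against 8.55, 7.90 and 8.15 FPKM in PBS libraries, with the groups overlapping (adjusted p = 0.365). Fen1, the nuclease that trims Okazaki fragments, had 0.370, 0.259 and 0.354 FPKM in GCA libraries, against 0.249, 0.273 and 0.116 FPKM in PBS libraries, from 5 to 16 fragments per library. Exons of Gm10143 and Tmem258 on the opposite strand cover 84.2% of the exon length of Fen1, so that its level is uncertain.

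Nucleotide supply genes rose in 4 of 5 cases. Tk1 (ENSMUSG00000025574, chromosome 11, 117815526 to 117826092), the thymidine kinase of S phase, had 5.41, 6.23 and 5.69 FPKM in GCA libraries, against 3.16, 3.94 and 3.81 FPKM in PBS libraries. Its rise was 1.59-fold (log2 0.55, SE 0.08, adjusted p = 0.00395), the largest of the 47 genes on the log2(FPKM + 1) scale but not by means, where E2f8 (1.60), Mcm10 (1.68) and Brca1 (1.72) were above it. The call held whichever library was left out, and the groups did not overlap. Rrm1 and Rrm2 encode the subunits of ribonucleotide reductase, which makes the deoxynucleotides. Rrm1 had 18.1, 18.3 and 19.7 FPKM in GCA libraries, against 14.1, 16.1 and 16.1 FPKM in PBS libraries (log2 0.26, SE 0.07, adjusted p = 0.0276). Rrm2 had 20.7, 21.8 and 22.3 FPKM in GCA libraries, against 16.1, 18.9 and 18.4 FPKM in PBS libraries (log2 0.27, SE 0.07, adjusted p = 0.0268). The pair had a ratio of Rrm2 to Rrm1 of 1.13 to 1.20 in GCA libraries and 1.14 to 1.17 in PBS libraries. Dut, which removes dUTP, had 5.90, 6.24 and 6.90 FPKM in GCA libraries, against 5.19, 5.03 and 4.77 FPKM in PBS libraries (log2 0.29, SE 0.07, adjusted p = 0.0201). Tyms, the thymidylate synthase, averaged 2.43 ± 0.17 FPKM in GCA libraries and 1.83 ± 0.31 FPKM in PBS libraries (SD, n = 3 each) and did not pass (limma adjusted p = 0.0789), although the groups were apart and limma-voom called it (0.0231). Rrm1 was called on leaving out GCA replicate 2 and on no other omission (0.0511 to 0.083 in the others). Rrm2 lost its call without GCA replicates 2 or 3 or PBS replicates 1 or 3 (0.0538 to 0.0794), and Dut without GCA replicate 3 or PBS replicates 2 or 3 (0.0567 to 0.0739).

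Genes that copy chromatin and its methylation rose in 3 of 4 cases. Uhrf1 (ENSMUSG00000001228, chromosome 17, 56303321 to 56323486), which reads hemimethylated DNA behind the fork and recruits the maintenance methyltransferase, had 7.68, 8.61 and 8.12 FPKM in GCA libraries, against 5.31, 6.31 and 5.68 FPKM in PBS libraries. It rose 1.41-fold (log2 0.43, SE 0.07, adjusted p = 0.00551). Dnmt1, that methyltransferase, had 12.4, 13.2 and 13.5 FPKM in GCA libraries, against 10.5, 10.9 and 10.5 FPKM in PBS libraries, a smaller rise of 1.22-fold (log2 0.27, SE 0.05, adjusted p = 0.00997). Both kept their calls whichever library was left out, and neither pair of groups overlapped. Chaf1b, of the CAF-1 histone chaperone, had 3.08, 3.36 and 2.80 FPKM in GCA libraries, against 2.16, 2.61 and 2.29 FPKM in PBS libraries (log2 0.28, SE 0.08, adjusted p = 0.047). That call was lost after quantile normalization (adjusted p = 0.067), after median centring (0.0617) and on leaving out any library but GCA replicate 3 (0.0528 to 0.131). Its partner Chaf1a averaged 5.22 ± 0.43 FPKM in GCA libraries and 4.29 ± 0.28 FPKM in PBS libraries (SD, n = 3 each, limma adjusted p = 0.0593) and passed without GCA replicate 1 (0.0495) and with limma-voom (0.0179). Ubxn6 on the opposite strand overlaps 52.5% of the exon length of Chaf1a.

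In the group that controls entry into S phase fold changes had both signs. Of 5 genes 2 rose, beside 11.5% of all tested genes called higher, and 3 did not pass. E2f2, an activator E2F, was the 1 gene of the 47 with a fold change below 0, with 1.70, 1.98 and 1.92 FPKM in GCA libraries, against 2.37, 2.34 and 2.45 FPKM in PBS libraries. All GCA libraries were below all PBS libraries, beside 16.8% of all tested genes (log2 -0.24, SE 0.07, adjusted p = 0.0504). It just missed the threshold here, passed it as a fall after quantile normalization (adjusted p = 0.0369), after median centring (0.0425), without trend and robust moderation (0.0299) and with limma-voom (0.024), and passed on leaving out no library (0.0553 to 0.151). E2f1, another activator, was higher in every GCA library, with 8.65, 9.63 and 10.8 FPKM in GCA libraries, against 7.60, 8.49 and 7.04 FPKM in PBS libraries. It did not pass (log2 0.30, SE 0.09, adjusted p = 0.0553) and passed without GCA replicate 1 (0.0401), with a mean of at least 5 FPKM (0.0346) and with limma-voom (0.0204). The ratio of E2f1 to E2f2 was 4.85 to 5.63 in GCA libraries and 2.88 to 3.63 in PBS libraries (exact two-sided permutation p = 0.1, the smallest possible, and 0.167 adjusted over 5 ratios). E2f8, a repressor that E2F activators themselves induce, had 1.85, 2.39 and 2.35 FPKM in GCA libraries, against 1.28, 1.43 and 1.41 FPKM in PBS libraries. It rose 1.60-fold (log2 0.43, SE 0.09, adjusted p = 0.0145), and lost its call without GCA replicate 3 or PBS replicate 1 (0.0506 to 0.0528). Ccne1, a cyclin E gene that drives S phase entry through Cdk2, had 6.86, 6.79 and 7.29 FPKM in GCA libraries, against 6.20, 5.73 and 5.84 FPKM in PBS libraries. It rose 1.18-fold (log2 0.20, SE 0.06, adjusted p = 0.0379). Its call was lost with limma-voom (0.0729) and without GCA replicates 1 or 3 or PBS replicates 2 or 3 (0.0842 to 0.116). Ccne2 had 2.69, 3.62 and 2.79 FPKM in GCA libraries, against 2.37, 2.32 and 2.34 FPKM in PBS libraries and did not pass (adjusted p = 0.0858).

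Brca1 and Brca2 protect stalled forks and repair breaks by recombination. Brca1 had 2.34, 3.54 and 2.63 FPKM in GCA libraries, against 1.39, 1.74 and 1.82 FPKM in PBS libraries, with GCA replicate 2 the highest. It rose 1.72-fold (log2 0.53, SE 0.12, adjusted p = 0.0232), and lost its call without GCA replicate 3 or PBS replicates 1 or 2 (0.0518 to 0.0792). Brca2 was below the filter, with 0.493, 0.815 and 0.802 FPKM in GCA libraries, against 0.487, 0.553 and 0.514 FPKM in PBS libraries, and its groups overlapped.

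**Figure D3:**
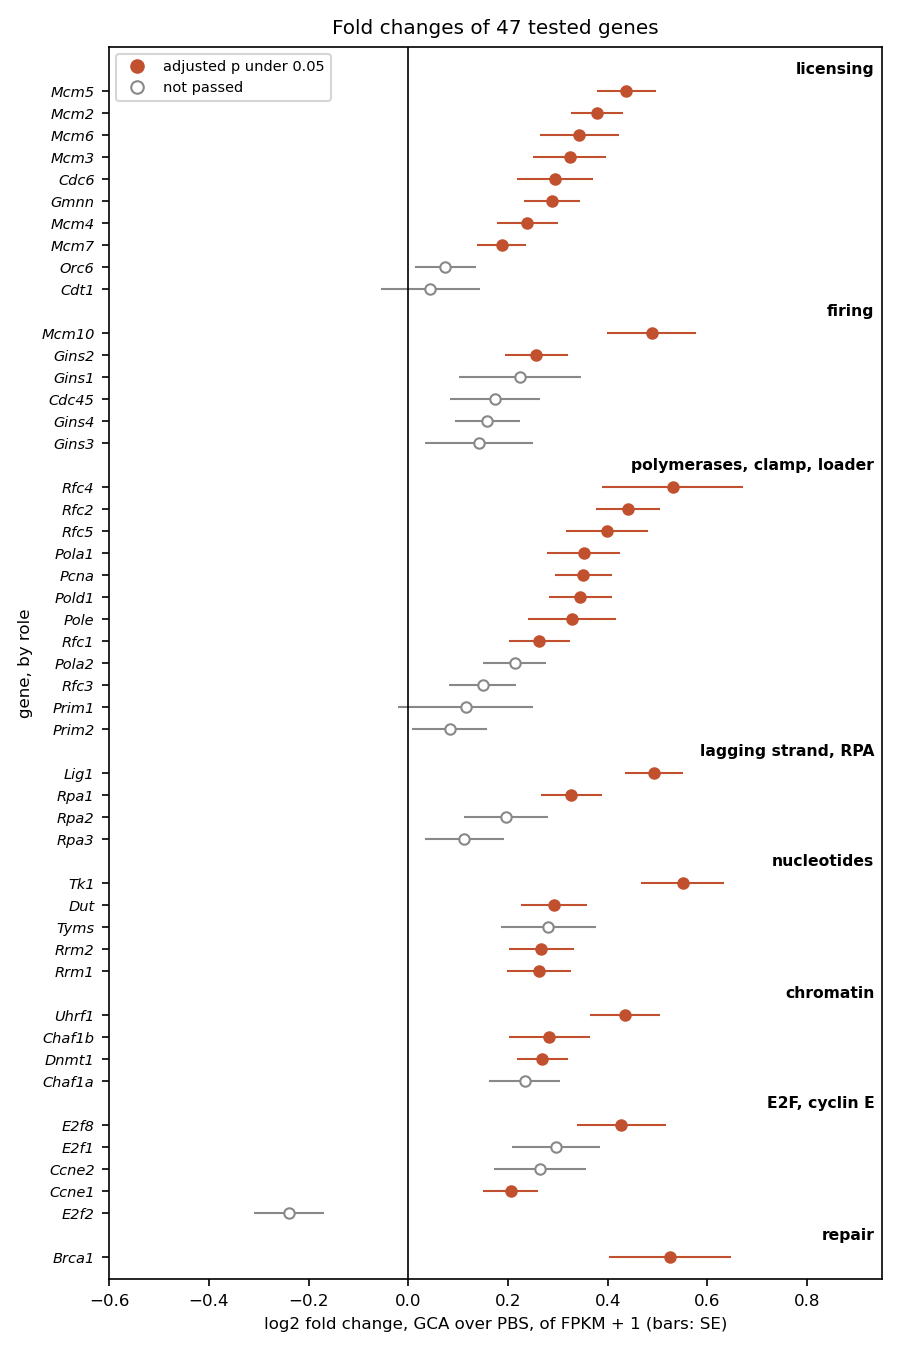
Log2 fold change of FPKM + 1, GCA over PBS, of the 47 tested genes by role, with SE bars; filled points passed an adjusted p of 0.05 (30 genes). Points lie right of 0 except E2f2 at -0.24, and Tk1, at 0.55, lies farthest right, with Rfc4 and Brca1 next at 0.53.

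A second list held 72 further genes of replication and S phase, sorted into the same roles. Of 59 tested, 14 rose, 1 fell and 44 did not pass. The share called higher was 23.7%, beside 11.5% of all tested genes, with a median of 0.11 log2 units. These figures leave out 13 genes below the filter, 7 of them in fork protection and repair. As sorted, with Mcm8 under origin licensing and Samhd1 under nucleotide supply, the rises were spread over 7 roles. They were most common in nucleotide supply (4 of 8) and fork protection and repair (4 of 10). None of 4 tested lagging strand genes was called by limma, with 3 of the 4 higher at an unadjusted p under 0.05. Ccna2, the cyclin of S phase and G2, had 9.16, 9.74 and 11.2 FPKM in GCA libraries, against 5.37, 6.62 and 5.73 FPKM in PBS libraries (log2 0.68, SE 0.09, adjusted p = 0.00237), and Fbxo5, which restrains the anaphase-promoting complex through S phase, had 5.03, 5.15 and 4.87 FPKM in GCA libraries, against 3.26, 3.35 and 3.30 FPKM in PBS libraries (log2 0.48, SE 0.06, adjusted p = 0.00125).

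Samhd1, which breaks down deoxynucleotides, and Dck, which salvages deoxycytidine, also rose, 1.30-fold and 1.29-fold (limma adjusted p = 0.00241 and 0.00309). Wdhd1, which ties polymerase alpha to the fork, rose 1.65-fold (0.00571), and Mcm8, a helicase of recombination repair outside the MCM2-7 ring, rose 1.78-fold (0.0101). Pold2 and the histone chaperone Nasp rose as well (adjusted p = 0.0266 and 0.0348). Pold2 lost its call without GCA replicates 1 or 2 or PBS replicates 1 or 3 (0.0535 to 0.0754), and Nasp kept it only without GCA replicate 2 (0.0804 to 0.1 in the others). Msh6, of mismatch repair, fell, with 7.45, 7.21 and 8.17 FPKM in GCA libraries, against 10.0, 9.87 and 9.06 FPKM in PBS libraries (log2 -0.31, SE 0.06, adjusted p = 0.0138); without PBS replicates 1 or 2 its adjusted p was 0.0508 to 0.0545. Mcmbp, Cdc7, Atad5, Rnaseh2a, Rnaseh2b and Rbbp7 were among the 2 smallest p in their roles and did not pass (adjusted p 0.0692 for Atad5 to 0.476 for Mcmbp). Limma-voom called Atad5 (0.0149) and Rnaseh2b (0.0488), and the fit without trend and robust moderation called Atad5 (0.0435).

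Mitosis genes, transcribed later in the cycle, were also higher. Of 28 tested 26 rose, a share of 92.9% beside 11.5% of all tested genes. The other 2 did not pass, and the median was 0.52 log2 units. The smallest p were of Ube2c, Ccnb2, Birc5 and Ccnb1, of mitotic exit, mitotic entry and chromosome segregation, which rose 1.74, 1.88, 1.84 and 1.64-fold. No test was made between the lists. The letters TTTGAA, the CHR element of late cell cycle genes, searched on both strands, was in 72.0% of 25 mitosis genes with a promoter entry and 17.1% of the 41 replication genes, against 20.2% of all genes in the table. The E2F spellings were in 4.0% and 39.0%.

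Regulators of G1 did not move together. Of 19 tested 4 rose (21.1%), beside 11.5% of all tested genes, and 1 fell, beside 6.43%. The other 14 did not pass, and the median was -0.04 log2 units. The 5 calls became 3 without GCA replicate 1 or PBS replicate 2 and 2 without PBS replicate 3. Cdkn2c, the p18 inhibitor of Cdk4 and Cdk6, had 12.0, 12.6 and 13.8 FPKM in GCA libraries, against 7.86, 8.20 and 7.64 FPKM in PBS libraries, a rise of 1.62-fold (log2 0.63, SE 0.06, adjusted p = 0.000719). The cyclin D gene Ccnd2 had 37.2, 36.8 and 42.1 FPKM in GCA libraries, against 58.2, 52.2 and 47.7 FPKM in PBS libraries, the 1 fall of this list (log2 -0.43, SE 0.08, adjusted p = 0.0104). The pocket protein genes Rb1 and Rbl1, whose products hold E2F in check, rose 1.23-fold and 1.23-fold (adjusted p = 0.0183 and 0.0206). Rb1 lost its call without GCA replicate 1 or PBS replicate 3 (0.0532 to 0.0559), and Rbl1 without any 1 PBS library (0.0515 to 0.0652).

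**Figure D4:**
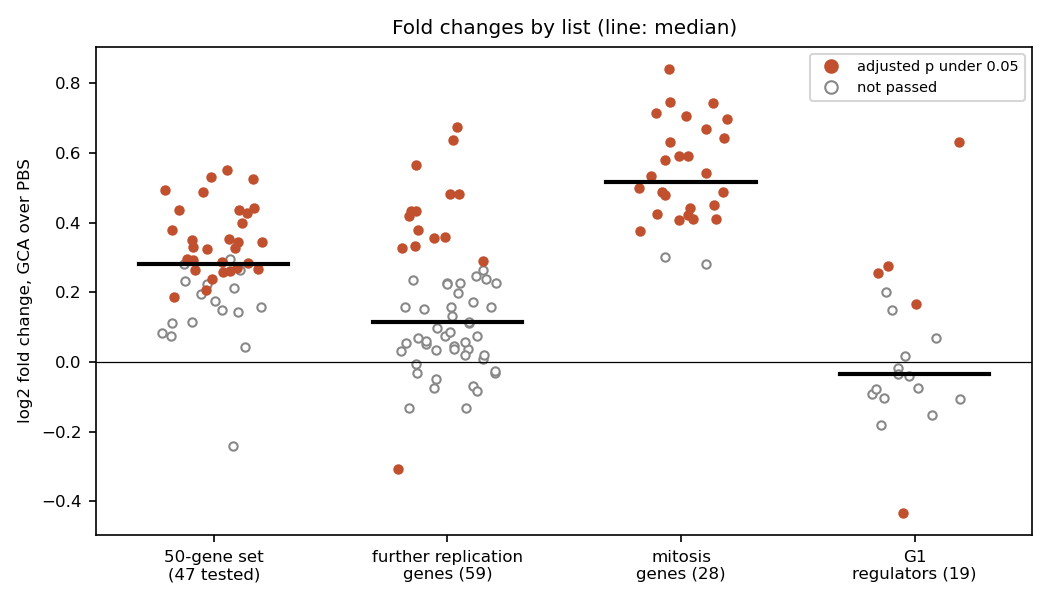
Log2 fold change, GCA over PBS, of each tested gene in the replication set (47), the further replication genes (59), mitosis genes (28) and G1 regulators (19); filled points passed an adjusted p of 0.05 and lines are medians. The medians are 0.28, 0.11, 0.52 and -0.04.

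Counting limits touch some of these values. Exons of 17 of the 50 genes overlap another annotated gene, by over 50% of exon length for Fen1, Gins2 and Chaf1a, and the rule by which the authors assigned shared reads or strand was not stated. Of the 11 overlapping genes that were tested, 1 was called, Ap4m1, which overlaps Mcm7. A transcript of another locus matched at least 150 bases at 95% identity or more for 8 genes: Cdc6, Mcm6, Mcm7, Pcna, Rfc5, Rrm2, Tyms and Uhrf1. The copy of Pcna, Pcna-ps2, matched 781 bases at 99.2% and averaged 0.621 FPKM in GCA libraries and 0.367 FPKM in PBS libraries, and the copy of Mcm7, Gm5487, matched 2157 bases at 97.7%, so reads could be shared there.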

How the data were processed

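RNA of 3 GCA and 3 PBS libraries was read as 150 bp pairs, per the labels' protocols. Among the submitters' processing notes are Bowtie 0.12.2, mm8 and mm9, with no role stated; no source used here gives the counter, annotation, filters or strand setting. The deposited values are taken as FPKM: multiplied by GENCODE M21 exon length and 1 total per library, 90.75% to 91.04% of nonzero values were whole within 0.02 fragments. Of 27263 genes, 27204 matched M21 by Ensembl ID, and gene coordinates are from it.

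Log2(FPKM + 1) was fitted with limma 3.58.1 in R 4.3.3 (trend and robust moderation), with Benjamini-Hochberg adjustment over all genes tested; the fit was tested on simulated data. Genes named with values are the 3 smallest p in each role, those below 0, those below the filter and subunits of MCM2-7, GINS, RFC and RPA, plus the 2 smallest p per role among the further genes, any past the threshold in the other direction, and the 4 smallest p of mitosis genes and of G1 regulators; further genes of the 50 named beside them were chosen after their values were seen. Some results that this rule names are not reported here. The genes and lists were chosen with earlier results of these data known. Alternatives changed normalization, filter, pseudocount, moderation, replicate block and libraries, or used limma-voom on recovered fragments, which called 2759 genes. Copies were found with BLAST 2.17.0. Low values rest on few fragments: 1 fragment in a 2 kb gene is 0.0268 to 0.0285 FPKM.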

Additional observations from a re-analysis of the deposited data

How the results depend on the processing

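With no filter on low values 1075 genes were called in place of 2151, 13 replication genes in place of 30, and 1 G1 regulator in place of 5. With a mean of at least 5 FPKM, 7 further replication genes were called in place of 15 and 16 mitosis genes in place of 26, as fewer genes were tested. Leaving out 1 library at a time gave 1225 to 2078 calls over all genes, 15 to 24 of the 47 replication genes, 10 to 13 further replication genes, 22 to 26 mitosis genes and 2 to 5 G1 regulators; fewer samples entered those fits. Without GCA replicate 2 the fold change of Cdt1 turned to -0.03 and that of Prim1 to -0.011 log2 units; with 1 library left out they reached at most 0.155 and 0.208. Same-numbered libraries deviated together only weakly (r of 0.082, 0.029 and 0.068), though each library correlated best with its own number, so the numbers were not taken as pairs; a replicate block gave 2094 calls over all genes, 27 replication genes, 15 further replication genes, 25 mitosis genes and 4 G1 regulators. In the block fit Cdc6, Mcm7, Pole, Rfc4 and Ccne1 were not called and Pola2 and Chaf1a were. Over the single genes named, 910 values kept their direction and side of the threshold under an alternative, 119 lost the call, 18 gained it and 2 changed direction; causes were not tested. Fen1, Orc1 and Brca2 fell below the filter and were tested only in the fit without one.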
